A study of Mus musculus with 2 samples.

Results

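The 57 genes described here encode the enzymes and transporters of glycolysis, lactate and pyruvate handling, the citrate cycle and the pentose phosphate pathway, and they were chosen by gene symbol from 44713 genes in a table of RNA sequencing counts. All 57, called members here, were in the table. They were read in 2 libraries of total RNA from pancreatic islets, which had been freed with collagenase and a density gradient, and ribosomal RNA was removed before sequencing. The db/db library is labelled Lepr-/-, after the gene of the leptin receptor, and db/db mice are used as a model of obesity and type 2 diabetes. The db/m library is labelled Wild type and served as its control. Both carry the C57BL/6 background label. The age, sex, treatment and number of the animals behind a library are not stated in the labels read here. The series describes triplicates, and 1 library per group was analysed here.

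Glycolysis splits glucose into pyruvate and yields ATP and NADH, the citrate cycle burns the acetyl group made from pyruvate, and the pentose phosphate pathway takes glucose 6-phosphate aside to make NADPH and ribose. In beta cells the rate of glucose breakdown sets the rate of insulin release. These cells send most pyruvate into mitochondria and normally keep the genes of lactate dehydrogenase A and of the lactate and pyruvate carrier Slc16a1 almost silent, whereas acinar and other pancreatic cells use them.

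The db/db library held 18233695 counts and the db/m library 16271129. Levels are given in CPM, counts per 1000000 of the library size after TMM scaling (trimmed mean of M values), so that 1 count of the db/db library stood for 0.0516 CPM and 1 count of the db/m library for 0.0653 CPM. Each ratio is db/db over db/m, followed in parentheses by its exact 95% interval for counting error. With 1 library per group no ratio has a replicate check and no p-value is given, so these values describe the libraries and not the genotypes. Exocrine RNA made up most of both: 29 acinar markers took 72.4% of the db/db and 72.5% of the db/m library, against 0.166% and 0.147% for 10 beta cell markers. Beta cell RNA was thus a small part of libraries labelled islet cells. The summed beta cell markers had a ratio of 1 (0.983 to 1.02), and Ins2 alone gave 67.9% of their counts. Of the 10, 6 were called lower and 0 higher by the rule given below. Among markers of other endocrine cells, 4 of 5 were called higher, with a summed ratio of 4.62 (4.32 to 4.95). Summed markers of duct, endothelial and leukocyte cells had ratios of 0.811 (0.737 to 0.893), 0.705 (0.554 to 0.897) and 0.553 (0.349 to 0.869). Those of stellate cells had a ratio of 1.59 (1.17 to 2.2) and those of acinar cells 0.885 (0.884 to 0.885). These ratios are on the TMM scale, and with total counts every log2 ratio is larger by 0.18. The duct and endothelial intervals then include 1, and the beta cell interval lies above 1. As shares of total counts, given above, the acinar markers were nearly equal. The leukocyte sums were only 35 and 50 counts in db/db and db/m islets. Duct markers were mixed, with ratios of 1.22 and 1.28 for Krt19 and Krt7 and 0.581 and 0.769 for Sox9 and Spp1. Acinar markers were mixed too, with ratios from 0.394 for Amy2b to 2.98 for Try10, 2 called lower and 1 higher. Among endothelial markers Pecam1 had a ratio of 1.1, and Cdh5, Kdr and Plvap had 0.749, 0.488 and 0.368. The stellate sums were 125 and 62 counts in db/db and db/m islets. In that list Rgs5 had a ratio of 0.703 and the other genes lay above 1. Every cell type uses central carbon genes, and the part of these cell types in the results was not tested. In such bulk RNA, fewer cells of a type and less RNA per cell cannot be told apart.

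Central carbon genes stood close to equal levels in both libraries, with shifts between isoenzymes at a few steps. Of the 57 genes, 56 had a count and 51 reached a mean of 1 CPM, the limit for a comparison. A gene was called when its ratio was at least 2-fold either way and its interval left out 1. Pfkp, the platelet form of phosphofructokinase, was the 1 gene called higher in db/db islets, where 3.83% of all 10300 compared genes were called higher. Gapdh was the 1 gene called lower, against 4.04% of all genes. Together this was 3.92% of the compared members and 7.87% of all genes. Among the 32 members that averaged 10 CPM or more, 0 were called, against 3.16% of 4148 genes at that level. By the interval alone, at any fold, 16 members lay above 1 and 5 below 1 (31.4% and 9.8%), where the shares of all genes were 20.7% and 18.2%. At 10 CPM or more the counts were 13 above 1 and 3 below 1 (40.6% and 9.38%), against 28.9% and 23.0% of all genes.

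The log2 ratios of the members also spread less than those of all genes. At 10 CPM or more, the middle 80% of the members spanned 0.48 on the log2 scale (-0.15 to 0.32), and the middle 80% of all genes spanned 0.84 (-0.41 to 0.43). The members' median log2 ratio was 0.10, against 0.04 for all genes. Summed over all 57 genes the level was 1228 CPM in db/db islets, against 1130.5 CPM in db/m islets, for a ratio of 1.09 (1.06 to 1.11). With total counts as the scale every log2 ratio was larger by 0.18. At the limit of 1 CPM the members' median was then 0.27 against 0.20 for all genes, where TMM gave 0.09 and 0.02. By the interval, 24 members then lay above 1 and 3 below 1 (47.1% and 5.88%), against 35.2% and 9.85% of all genes. All 16 members above 1 stayed there, and Ldha, Pcx and Gapdh were the 3 that stayed below. The 8 members whose interval lay above 1 with total counts alone were Pkm, Slc16a1, Pdha1, Dlat, Aco1, Dlst, Suclg1 and Mdh2, while Mpc2 and Ogdh lay below 1 with TMM alone. Intervals are those with TMM unless total counts are named. On that scale 67.1% of the calls over all genes were higher, against 48.7% with TMM.

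**Figure D1:**
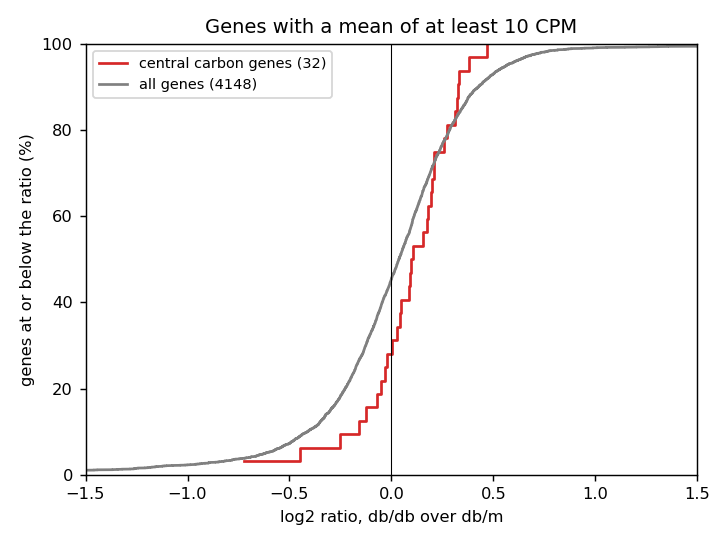
Cumulative share of genes (vertical axis, %) by log2 ratio of db/db over db/m (horizontal axis), for the 32 central carbon genes and all 4148 genes that averaged 10 CPM or more. The line of the central carbon genes is steeper, with its middle 80% between -0.15 and 0.32, against -0.41 to 0.43 for all genes. A small part of all genes lies beyond the plotted range.

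**Figure D2:**
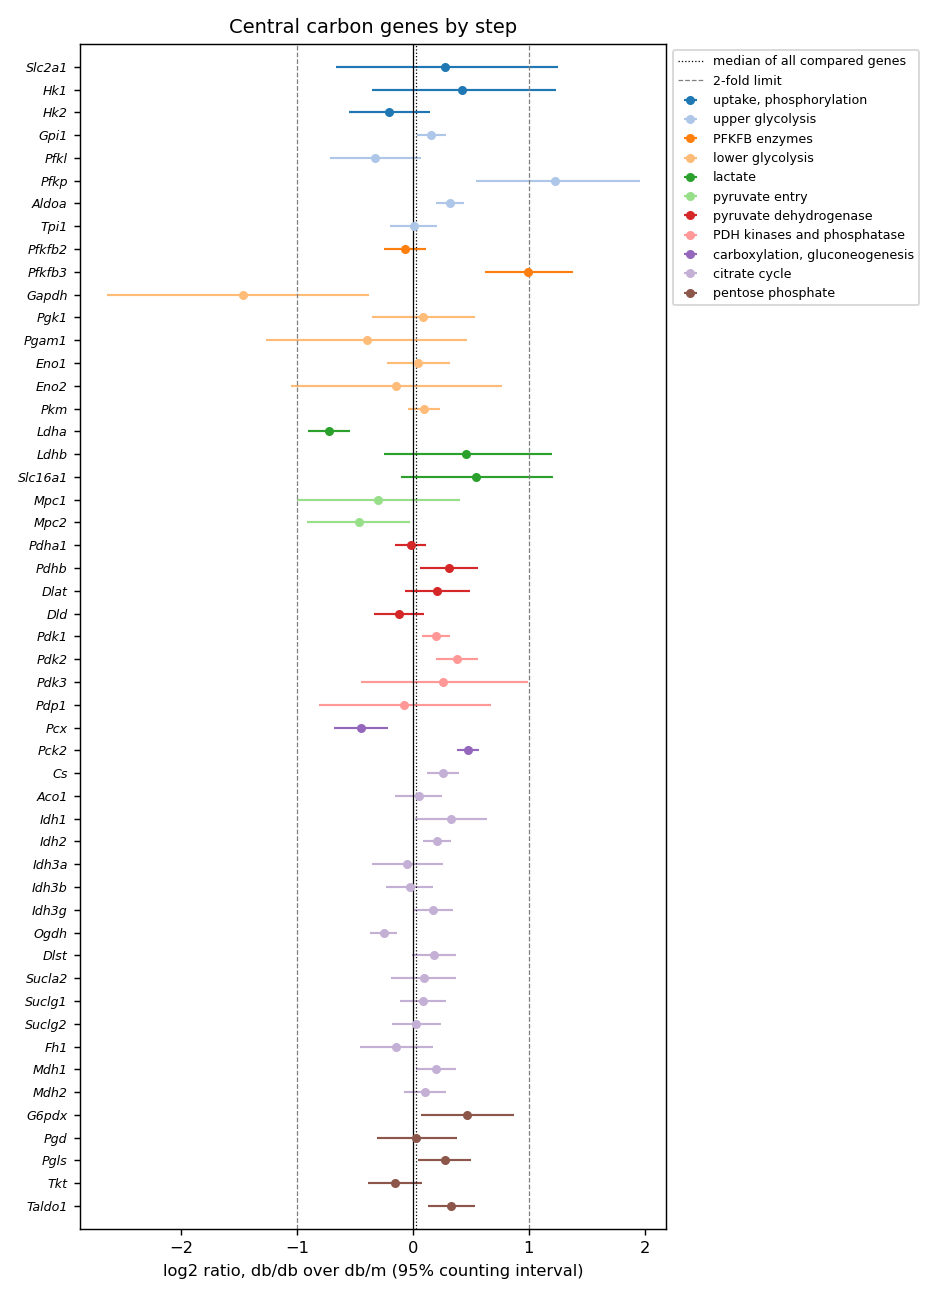
Log2 ratio of db/db over db/m (horizontal axis) for the 51 compared central carbon genes, listed by step, with bars for the 95% counting interval. Most points lie near 0, Pfkp lies above the 2-fold limit, Pfkfb3 on it and Gapdh below the lower limit with a wide interval.

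Glucose uptake and phosphorylation opened the pathway with few counts. Slc2a1, the glucose transporter found in most cells, had 26 counts in db/db islets, against 17 in db/m islets, and its ratio of 1.21 (0.631 to 2.37) left the direction unresolved at this depth. Slc2a2, the low-affinity transporter of mouse beta cells and a gene of the wider pathway outside the 57, stood at 1.81 CPM in db/db islets, against 8.42 CPM in db/m islets, which was 4.66-fold lower (3.19 to 6.98). Slc2a2 is also on the list of beta cell markers. In the family of Slc2a1, Slc2a2 and Slc2a3, Slc2a1 made up 41.9% of the family counts in db/db islets (29.5% to 55.2%), against 11.4% in db/m islets (6.79% to 17.6%). The odds of a count being Slc2a1 differed by a ratio of 5.55 (2.59 to 12.2), a measure that does not depend on how the libraries are scaled. It does depend on Slc2a2, whose 35 counts in db/db islets, against 129 in db/m islets, enlarge the share of Slc2a1. Shares of counts are not corrected for transcript length.

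Among the hexokinases, Hk1 had 39 counts in db/db islets, against 23 in db/m islets, and Hk2, the insulin-regulated form, 7.48 and 8.62 CPM in db/db and db/m islets, with ratios of 1.34 (0.781 to 2.35) and 0.868 (0.681 to 1.11). Both intervals include 1. Hkdc1, a hexokinase-like protein and a gene outside the 57, stood at 2.74 and 7.25 CPM in db/db and db/m islets, which was 2.65-fold lower (1.89 to 3.75).

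In upper glycolysis the shared enzymes differed little and the phosphofructokinase isoforms differed more. Gpi1, which turns glucose 6-phosphate into fructose 6-phosphate, stood at 65 CPM in db/db islets, against 58.4 CPM in db/m islets, for a ratio of 1.11 (1.02 to 1.21). Aldoa, the main aldolase outside the liver, stood at 76.1 CPM in db/db islets, against 61 CPM in db/m islets, for a ratio of 1.25 (1.15 to 1.36). Tpi1, which interconverts the products of aldolase, was at 23.4 and 23.3 CPM in db/db and db/m islets, for a ratio of 1 (0.871 to 1.16). Aldoc, the brain aldolase, had 4 and 5 counts and was not compared. Aldoa kept 96.3% of the aldolase counts in db/db islets and 95.6% in db/m islets.

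Phosphofructokinase commits glucose carbon to glycolysis. The liver form Pfkl had 112 counts in db/db islets, against 111 in db/m islets, for a ratio of 0.797 (0.608 to 1.05), and the platelet form Pfkp had 71 counts in db/db islets, against 24 in db/m islets, for a ratio of 2.34 (1.45 to 3.88) and a log2 ratio of 1.23. Pfkp thus stood at 3.66 CPM in db/db islets and 1.57 CPM in db/m islets. The muscle form Pfkm had 4 counts and 1 count. Pfkp took 38% of the family counts in db/db islets (31% to 45.3%), against 17.6% in db/m islets (11.6% to 25.1%), with an odds ratio of 2.85 (1.64 to 5.08), while the summed counts of the 3 isoforms had a ratio of 1.09 (0.867 to 1.37). Pfkp (chromosome 13, 6579874 to 6649060 in GRCm38.p6) overlaps Pitrm1, which had 291 and 213 counts in db/db and db/m islets, and without knowledge of the strand used in counting, reads of the overlap could not be assigned. Pfkfb2 likewise overlaps Yod1, with 161 and 119 counts, and Pfkm overlaps Senp1, with 208 and 134 counts. In all, 25 of the 57 members overlap another annotated gene.

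The PFKFB enzymes make and remove fructose 2,6-bisphosphate, the strongest activator of phosphofructokinase. Pfkfb2, the form with the most counts, stood at 27.5 and 28.9 CPM in db/db and db/m islets, for a ratio of 0.953 (0.839 to 1.08). Pfkfb3, the inducible form with the highest kinase activity, stood at 10.7 CPM in db/db islets, against 5.36 CPM in db/m islets, for a ratio of 1.995 (1.54 to 2.61) that lay just inside the 2-fold limit and was called higher with total counts as the scale, at 2.25 (1.74 to 2.95). Pfkfb3 took 27.9% of the family counts in db/db islets (24.7% to 31.3%), against 15% in db/m islets (12.1% to 18.2%), an odds ratio of 2.2 (1.64 to 2.96). Pfkfb1, the liver and muscle form, had 0 counts and 4 counts. Pfkfb4, a form outside the 57, had 2 counts in db/db islets and 20 in db/m islets, for a ratio of 0.079 (0.00896 to 0.325), and missed the limit of 1 CPM.

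In lower glycolysis the 5 compared genes other than Gapdh had intervals that include 1, with ratios between 0.759 and 1.07. Pgk1, which makes the first ATP of this stretch, had 102 counts in db/db islets, against 76 in db/m islets, for a ratio of 1.06 (0.78 to 1.45). Eno1, the widespread enolase, stood at 13.5 and 13.1 CPM in db/db and db/m islets, for a ratio of 1.03 (0.854 to 1.24), and Eno2, the neuronal and endocrine form, had 24 and 21 counts, for a ratio of 0.903 (0.482 to 1.71). Pgam1, the mutase between them, had 24 and 25 counts, for a ratio of 0.759 (0.415 to 1.38). Pkm, the pyruvate kinase of most tissues, stood at 53.6 CPM in db/db islets, against 50.2 CPM in db/m islets, for a ratio of 1.07 (0.972 to 1.17), and held 98.2% of the pyruvate kinase counts in both libraries. Pklr, the liver and red cell form, had 19 and 14 counts and fell just short of the comparison at a mean of 0.951 CPM.

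Gapdh, usually among the most transcribed genes of a cell, had only 11 counts in db/db islets and 24 in db/m islets. It was 2.76-fold lower (1.3 to 6.24), a call that rests on these counts and on a mean just above the limit, at 1.04 CPM. Gapdh, Ldha, Aldoa, Tpi1, Pgk1, Pgam1, Eno1 and Pkm are known for processed pseudogenes with near-identical sequence, and how reads with several matches were handled was not stated in the notes used here, so their values are uncertain. Pseudogenes were searched by the member's symbol only, which found entries for Pgk1, Pgam1, Ldha and Mpc1. These drew few counts, from 0 to 6 in either library, except Mpc1-ps with 123 counts in db/db islets and 118 in db/m islets. Mpc1 itself had 37 and 36 counts. Pseudogenes of Gapdh, Aldoa, Tpi1, Eno1 and Pkm under other names were not read, so the pseudogene counts do not cover them.

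At the exit to lactate, Ldha had the lowest ratio of the 32 members that averaged 10 CPM or more. Ldha, the subunit that favours making lactate from pyruvate, stood at 23 CPM in db/db islets, against 37.9 CPM in db/m islets, from 445 and 581 counts. It was 1.65-fold lower (1.46 to 1.87), inside the 2-fold limit, and its interval lay below 1 with either scale. Ldhb, the subunit that favours the way back, had 47 counts in db/db islets, against 27 in db/m islets, for a ratio of 1.38 (0.839 to 2.3). Ldhb took 9.55% of the family counts in db/db islets (7.1% to 12.5%), against 4.44% in db/m islets (2.95% to 6.4%), and the odds ratio was 2.27 (1.36 to 3.86). Slc16a1, the carrier of lactate and pyruvate, had 59 counts in db/db islets, against 32 in db/m islets, for a ratio of 1.46 (0.932 to 2.32) whose interval includes 1 with TMM and lies above 1 with total counts, at 1.65 (1.05 to 2.62). Slc16a3, the lactate exporter of glycolytic cells, had 0 counts in both libraries. By counting error alone this allows up to 0.155 CPM in db/db islets and 0.196 CPM in db/m islets. Slc16a3 overlaps Csnk1d, which had 520 and 482 counts in db/db and db/m islets, and reads of that overlap could not be assigned either.

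The promoters of Pfkp, Pfkfb3 and Ldha are shown because these genes had the largest departures from equal levels among the compared members of the glycolysis and lactate steps other than Gapdh, a choice made after their values were seen. Each window runs from 250 bases before to 50 after a RefSeq start site in GRCm38.p6, 5′ to 3′ on the gene's strand, with the start right after the first 250 bases. For Ldha, which has 2 windows, the upstream one is shown, and for Pfkfb3 both are shown, upstream first. Capitals mark the E-box CACGTG and the core ACGTG or GCGTG that the hypoxia-inducible factor HIF binds, on either strand. Each E-box holds the core ACGTG on both strands. By the same annotation Pfkfb3 spans chromosome 2, 11471430 to 11554071, and Ldha chromosome 7, 46842274 to 46855627.
Pfkp, chr13:6648722-6649021, minus strand: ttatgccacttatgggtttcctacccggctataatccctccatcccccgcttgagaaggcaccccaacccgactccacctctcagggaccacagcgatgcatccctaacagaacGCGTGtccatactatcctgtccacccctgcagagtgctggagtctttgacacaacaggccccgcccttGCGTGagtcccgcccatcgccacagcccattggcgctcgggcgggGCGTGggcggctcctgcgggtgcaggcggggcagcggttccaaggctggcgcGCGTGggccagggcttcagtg
Pfkfb3, chr2:11553880-11554179, minus strand: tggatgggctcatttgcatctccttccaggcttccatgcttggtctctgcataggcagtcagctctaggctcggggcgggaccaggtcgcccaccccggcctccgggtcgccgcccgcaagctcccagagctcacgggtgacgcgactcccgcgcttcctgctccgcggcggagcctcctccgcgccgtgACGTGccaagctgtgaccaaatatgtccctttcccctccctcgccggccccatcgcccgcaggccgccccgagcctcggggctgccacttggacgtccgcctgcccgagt
Pfkfb3, chr2:11502041-11502340, minus strand: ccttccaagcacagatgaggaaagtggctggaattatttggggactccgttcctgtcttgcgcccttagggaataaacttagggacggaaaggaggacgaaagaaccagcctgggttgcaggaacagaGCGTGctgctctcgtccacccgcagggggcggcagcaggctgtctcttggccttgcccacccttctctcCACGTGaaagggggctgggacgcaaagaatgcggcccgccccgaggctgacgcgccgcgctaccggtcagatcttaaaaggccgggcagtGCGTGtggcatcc
Ldha, chr7:46845554-46845853, plus strand: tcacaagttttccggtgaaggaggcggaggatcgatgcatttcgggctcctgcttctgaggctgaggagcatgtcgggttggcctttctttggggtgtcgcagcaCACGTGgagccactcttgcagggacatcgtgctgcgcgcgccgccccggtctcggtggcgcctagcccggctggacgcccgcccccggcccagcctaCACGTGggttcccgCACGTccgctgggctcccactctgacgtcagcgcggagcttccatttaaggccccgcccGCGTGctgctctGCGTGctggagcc

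The Ldha window holds 2 E-boxes and further cores of both forms, and Ldha is a known target of HIF in low oxygen. The Pfkp window holds 4 cores of the form GCGTG. Of the Pfkfb3 windows, the upstream one holds 1 core of the form ACGTG and the downstream one an E-box and 2 cores of the form GCGTG. Promoter windows were found for 55 of the 57 genes. Counting a gene once for any of its start sites, an E-box was in 8 of the 55 (14.5%) and in 2187 of 27025 genes (8.09%). A HIF core of either form was in 42 of 55 (76.4%), in 20 of 24 glycolysis and lactate genes (83.3%) and in 12628 of 27025 genes (46.7%). The lists from pyruvate entry to the citrate cycle, without carboxylation and gluconeogenesis, held it in 15 of 23 genes (65.2%). These letters are rich in G and C, as are the windows of the members, with a median of 61.7% G and C against 52.7% for all genes. Genes with more start sites also had more windows in which to hold such letters. Whether the letters bear on the ratios was not tested.

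**Figure D3:**
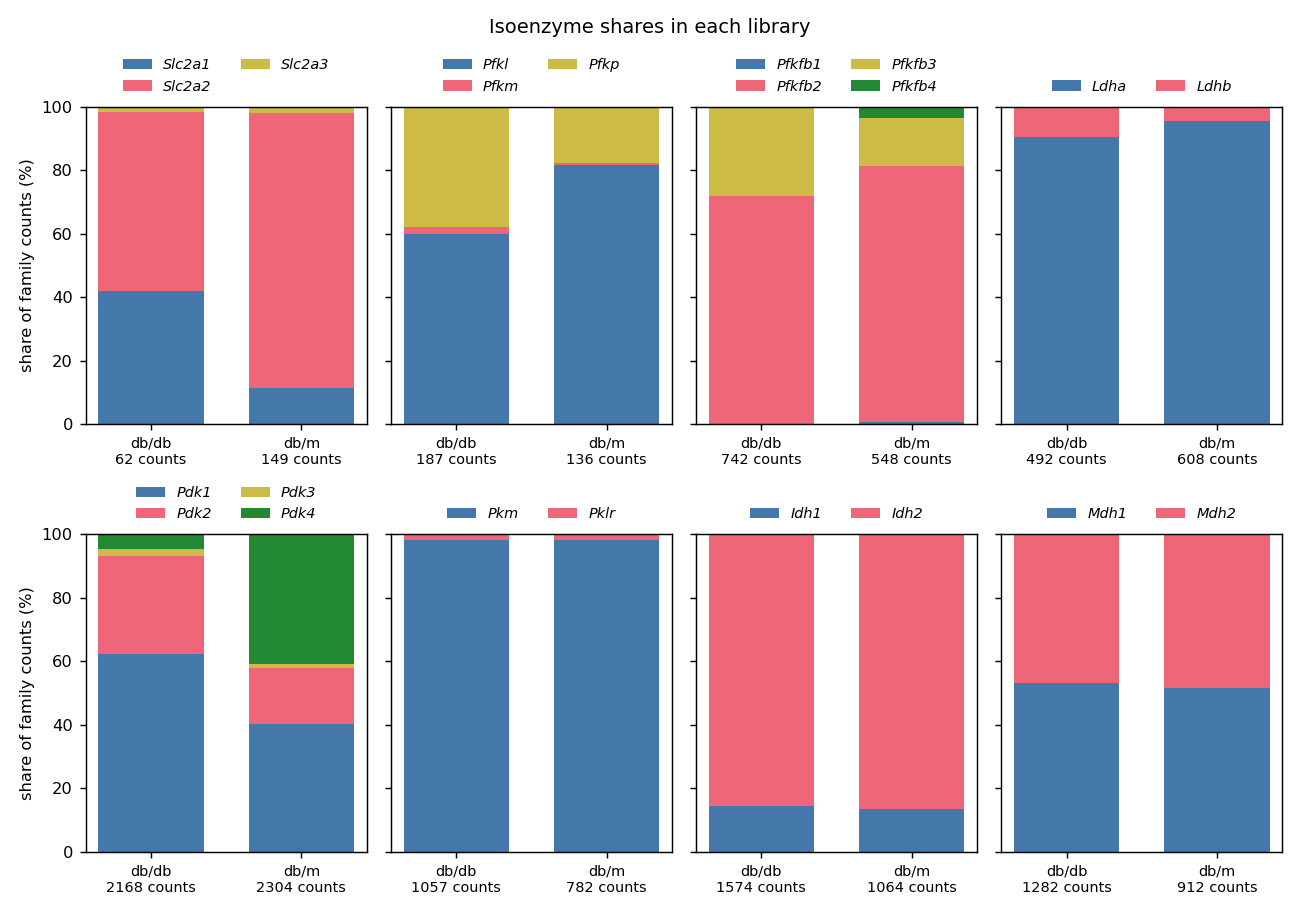
Share of each isoenzyme in the counts of its family (vertical axis, %) in db/db islets (left bar) and db/m islets (right bar), for 8 of 15 families, with the family's counts under each bar. Shares of Slc2a1, Pfkp, Pfkfb3, Ldhb, Pdk1 and Pdk2 are larger in db/db islets. Shares in the pyruvate kinase (Pkm, Pklr), NADP-dependent isocitrate dehydrogenase (Idh1, Idh2) and malate dehydrogenase (Mdh1, Mdh2) families differ little. Shares of a family depend on each other, so lower counts of Slc2a2 or Pdk4 enlarge the shares of the rest.

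Pyruvate enters mitochondria through the carrier formed by Mpc1 and Mpc2. Mpc2 had 84 counts in db/db islets, against 92 in db/m islets, and was 1.39-fold lower (1.02 to 1.89), and Mpc1 had a ratio of 0.812 (0.499 to 1.32). With total counts the interval of Mpc2 includes 1.

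Pyruvate dehydrogenase, the complex that turns pyruvate into acetyl-CoA, showed nearly equal levels in its subunits. Pdha1, the alpha subunit of the decarboxylase, stood at 51.8 and 52.5 CPM in db/db and db/m islets, for a ratio of 0.986 (0.898 to 1.08). Pdhb, its beta subunit, stood at 17.4 and 14 CPM, for a ratio of 1.24 (1.04 to 1.48). Dlat, the acetyl transferase, stood at 13.4 and 11.6 CPM, for a ratio of 1.16 (0.952 to 1.41), and Dld, the dehydrogenase shared with the oxoglutarate complex, at 20.1 and 21.9 CPM, for a ratio of 0.918 (0.791 to 1.07). With TMM, Pdhb alone of the 4 had an interval that leaves out 1, and with total counts Pdha1, at 1.11 (1.01 to 1.22), and Dlat, at 1.31 (1.07 to 1.59), did too. The summed counts of the 4 subunits had a ratio of 1.03 (0.96 to 1.1).

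The kinases that switch this complex off differed in their mix. Pdk1 stood at 69.7 CPM in db/db islets, against 60.7 CPM in db/m islets, for a ratio of 1.15 (1.06 to 1.25), and Pdk2 at 34.6 CPM in db/db islets, against 26.6 CPM in db/m islets, for a ratio of 1.3 (1.15 to 1.48). Pdk3 had 44 and 29 counts, for a ratio of 1.2 (0.734 to 1.99). Pdk4, the kinase induced by fasting and fatty acids and a gene outside the 57, had 102 counts in db/db islets, against 938 in db/m islets, and was 11.6-fold lower (9.48 to 14.4). Pdk4 made up 4.7% of the family counts in db/db islets (3.85% to 5.68%), against 40.7% in db/m islets (38.7% to 42.8%). Pdk1 took 62.3% of the family counts in db/db islets (60.2% to 64.4%), against 40.4% in db/m islets (38.4% to 42.4%), and Pdk2 31% in db/db islets and 17.7% in db/m islets. The odds ratios were 0.0719 (0.0574 to 0.0894) for Pdk4, 2.44 (2.16 to 2.76) for Pdk1 and 2.09 (1.81 to 2.41) for Pdk2. Shares of a family depend on each other, so the lower Pdk4 counts by themselves enlarge the shares and odds of Pdk1 and Pdk2. The summed counts of the 4 kinases, 2168 in db/db islets and 2304 in db/m islets, had a ratio of 0.744 (0.701 to 0.789). Of the phosphatases that switch the complex on again, Pdp1 had 36 and 30 counts, for a ratio of 0.948 (0.568 to 1.59), and Pdp2, outside the 57, was 1.5-fold lower (1.15 to 1.95).

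Pyruvate carboxylase and mitochondrial PEP carboxykinase, which together carry pyruvate around the pyruvate kinase step, stood on opposite sides of equal levels. Pcx, which makes oxaloacetate from pyruvate and is abundant in beta cells, stood at 15.5 CPM in db/db islets, against 21.2 CPM in db/m islets, which was 1.37-fold lower (1.16 to 1.6). Pck2, the mitochondrial carboxykinase and a known target of the stress factor ATF4, had 2481 counts in db/db islets and 1415 in db/m islets, more than any other member. Its levels were 128 and 92.4 CPM in db/db and db/m islets, for a ratio of 1.39 (1.3 to 1.48). Its cytosolic counterpart Pck1 had 0 counts in both libraries. Fbp1, the gluconeogenic bisphosphatase of liver and kidney, had 3 counts and 1 count.

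The Pck2 promoter is shown because this gene held the most counts and had the largest ratio among the members above 10 CPM. The gene spans chromosome 14, 55540263 to 55550020 in GRCm38.p6. Capitals mark GCGTG and a match to TGATGNAA, the composite letters bound by ATF4 with C/EBP factors, here on the other strand.
Pck2, chr14:55540016-55540315, plus strand: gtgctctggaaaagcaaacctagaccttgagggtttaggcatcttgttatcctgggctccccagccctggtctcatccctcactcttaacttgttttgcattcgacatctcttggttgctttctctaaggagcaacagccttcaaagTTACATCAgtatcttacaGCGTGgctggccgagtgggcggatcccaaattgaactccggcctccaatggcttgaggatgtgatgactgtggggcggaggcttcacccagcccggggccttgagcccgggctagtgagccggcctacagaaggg

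Pck2 was the 1 member of 55 with TGATGNAA in its windows, and 1219 of 27025 genes (4.51%) hold it.

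The citrate cycle list, including its cytosolic counterparts, lay in a narrow range, with all 15 genes compared, 0 called and ratios between 0.839 and 1.25. Calls were few at such levels: 14 of the 15 averaged 10 CPM or more, where 3.16% of all genes were called. Citrate synthase (Cs), the entry of the cycle, stood at 57.5 CPM in db/db islets, against 48.1 CPM in db/m islets, for a ratio of 1.19 (1.09 to 1.31). The NADP-dependent isocitrate dehydrogenases, mitochondrial Idh2 and cytosolic Idh1, stood at 69.6 and 60.2 CPM and at 11.6 and 9.27 CPM in db/db and db/m islets. Their ratios were 1.16 (1.06 to 1.26) and 1.25 (1.01 to 1.56). In the NAD-dependent enzyme of the cycle, Idh3g stood at 36 and 31.9 CPM in db/db and db/m islets, for a ratio of 1.13 whose interval begins barely above 1, at 1.0035, and ends at 1.27. Idh3a, its catalytic subunit, stood at 10.3 and 10.6 CPM, for a ratio of 0.965 (0.78 to 1.19), and Idh3b at 23.2 and 23.7 CPM, for a ratio of 0.98 (0.851 to 1.13). Intervals of both include 1. Aco1, the cytosolic aconitase that also senses iron, stood at 23.4 and 22.7 CPM in db/db and db/m islets, for a ratio of 1.03 (0.897 to 1.19).

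Ogdh, the decarboxylase of the oxoglutarate dehydrogenase complex, stood at 62 CPM in db/db islets, against 73.9 CPM in db/m islets, and was 1.19-fold lower (1.1 to 1.29), while Dlst, its succinyl transferase, stood at 28.5 and 25.1 CPM, for a ratio of 1.13 (0.993 to 1.29). With total counts the interval of Ogdh includes 1, at a log2 ratio of -0.08, and that of Dlst lies above 1. The genes of succinyl-CoA synthetase had ratios near 1. Its shared alpha subunit Suclg1 stood at 25.3 and 23.8 CPM in db/db and db/m islets, for a ratio of 1.06 (0.925 to 1.22). The GTP-forming subunit Suclg2 stood at 21.8 and 21.4 CPM, for a ratio of 1.02 (0.88 to 1.18), and the ATP-forming subunit Sucla2 at 13 and 12.2 CPM, for a ratio of 1.07 (0.878 to 1.29). Fumarase (Fh1) stood at 9.39 and 10.4 CPM, for a ratio of 0.905 (0.727 to 1.13). The intervals of all 4 include 1. Of the malate dehydrogenases, the cytosolic form Mdh1 stood at 35.2 and 30.8 CPM in db/db and db/m islets, for a ratio of 1.14 (1.02 to 1.29), and the mitochondrial form Mdh2 at 31 and 28.8 CPM, for a ratio of 1.08 (0.949 to 1.22). Mdh1 gave 53.2% of the pair's counts in db/db islets and 51.6% in db/m islets. Summed, the 15 genes had 458 CPM in db/db islets, against 433 CPM in db/m islets, for a ratio of 1.06 (1.02 to 1.09).

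Of the 5 pentose phosphate genes, 3 had an interval above 1, where 20.7% of all genes did, and 0 were called, against 7.87% of all. G6pdx, the rate-limiting enzyme that makes NADPH, had 145 counts in db/db islets, against 83 in db/m islets, for a ratio of 1.38 (1.05 to 1.83). Pgls, the lactonase that follows it, stood at 20.9 and 17.3 CPM in db/db and db/m islets, for a ratio of 1.21 (1.03 to 1.42). Taldo1, the transaldolase, stood at 27.1 CPM in db/db islets, against 21.6 CPM in db/m islets, for a ratio of 1.26 (1.09 to 1.45). Pgd, the enzyme making NADPH a second time, stood at 8.46 and 8.29 CPM, for a ratio of 1.02 (0.805 to 1.3), and the transketolase Tkt at 16.6 and 18.5 CPM, for a ratio of 0.896 (0.762 to 1.05). Summed, the 5 genes stood at 80.6 CPM in db/db islets, against 71.2 CPM in db/m islets, for a ratio of 1.13 (1.05 to 1.22).

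**Figure D4:**
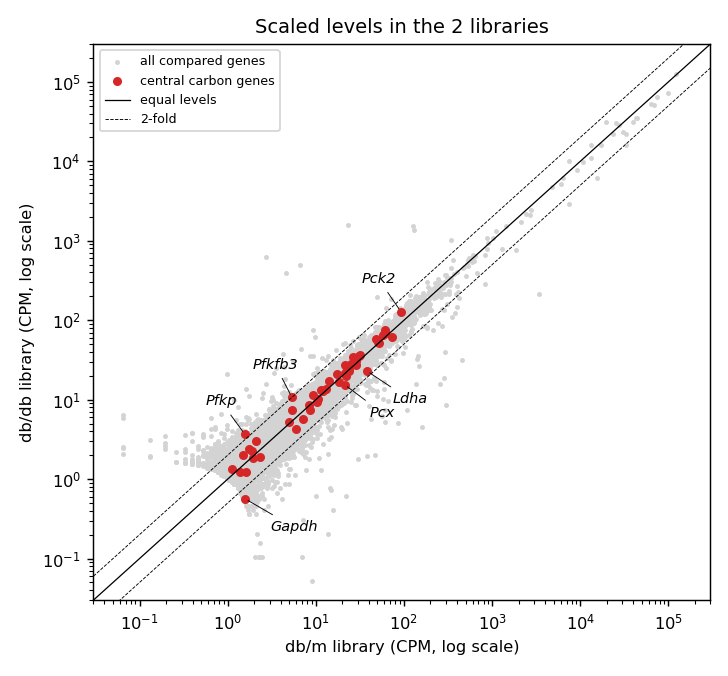
Scaled level in db/db islets (vertical axis, CPM, log scale) against the level in db/m islets (horizontal axis, CPM, log scale) for the 51 compared central carbon genes over all compared genes with a count in both. Pck2 lies above and Ldha and Pcx below the line of equal levels, between the 2-fold lines, and Gapdh lies at the low end below them.

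A further list of 47 genes of the same pathways, none of them among the 57, had 46 in the table, 36 compared, 0 called higher and 3 called lower: Slc2a2, Hkdc1 and Pdk4. Over all genes 3.83% were called higher and 4.04% lower. Its median log2 ratio was -0.01, against 0.02 for all genes at the limit of 1 CPM and 0.09 for the 51 compared members. By the interval alone 10 lay above 1 and 8 below (27.8% and 22.2%), against 20.7% and 18.2% of all genes. G6pc3, a widespread glucose 6-phosphatase, stood at 10.1 CPM in db/db islets, against 5.09 CPM in db/m islets, for a ratio of 1.99 (1.52 to 2.62), and G6pc2, the beta cell form, at 0.911 (0.785 to 1.06). Bpgm, which makes bisphosphoglycerate, was 1.72-fold lower (1.42 to 2.1) and Ldhd, which oxidises D-lactate, 1.85-fold lower (1.46 to 2.37). Succinate dehydrogenase differed by subunit: Sdha, Sdhc and Sdhd had ratios of 1.15 (1.04 to 1.29), 1.37 (1.13 to 1.68) and 1.34 (1.09 to 1.65), and Sdhb, its iron-sulfur subunit, was 1.35-fold lower (1.18 to 1.54).

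Across the 15 isoenzyme families, 6 had at least 1 gene whose odds ratio left out 1: the glucose transporters, hexokinases, phosphofructokinases, PFKFB enzymes, lactate dehydrogenases and pyruvate dehydrogenase kinases. The other 9 had none, among them aldolase, enolase, pyruvate kinase, the isocitrate and malate dehydrogenases and succinyl-CoA synthetase. Enolase also counts Eno3, the muscle form outside the 57, with 24.9% and 21.3% of the counts in db/db and db/m islets.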

How the data were processed

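Whole-number counts for each gene, with a column for each library, were deposited by the authors. The submitters' processing notes list HISAT2 2.0.4 as a tool, and mm10 and GRCm38 as builds. How reads were assigned to genes (program, annotation, strand, several matches) is not stated in the labels or notes used here. Libraries were grouped by title and scaled with TMM factors (edgeR 4.0.16, R 4.3.3). The interval of a ratio comes from the Clopper-Pearson interval of the db/db share of both counts, that of an odds ratio is the exact conditional one (scipy 1.17.1, Python 3.11.15). The limit of 1 CPM is the mean of unscaled CPM. A count of 0 was set to a floor of 3 counts in log2 ratios where the other count was above 3. Intervals and floors cover counting error only, since PCR copies are not separate molecules.

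Members, step lists, families, the list of other pathway genes and cell type markers were chosen with earlier results of these data known. The genes named are all 57 members, and of the other pathway genes those called and those in a family. G6pc2, G6pc3, Bpgm, Ldhd, Pdp2, the genes of succinate dehydrogenase and the shuttle genes were picked for mention with their values already known. The same holds for Slc25a1, Acly, Me1, Me2 and Slc16a7, which were neither called nor in a family. Promoters and gene positions come from RefSeq (GRCm38.p6), and positions were matched by symbol for 57 members. Alternatives were total counts, DESeq2 1.42.0 size factors, total counts without acinar markers, other filters, fold limits and intervals, and leaving out members with processed pseudogenes. Figures used matplotlib 3.10.9. Some genes of these pathways are not reported here.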

Additional observations from a re-analysis of the deposited data

How the results depend on the processing

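With total counts, and with total counts without acinar markers, 2 members were called higher (Pfkp and Pfkfb3), 1 other pathway gene was called higher (G6pc3), and the median log2 ratio of the other pathway genes was 0.17 and 0.16. With total counts 564 of all genes were called higher and 277 lower. Without a filter on low counts 781 genes were called higher and 814 lower. At 10 CPM the numbers were 36 and 95 for all genes, 0 and 0 for the members, and 1 other pathway gene called lower, with a median log2 ratio of 0.074. A fold limit of 1.5 gave 889 higher and 914 lower genes, 2 higher and 2 lower members, and 3 higher and 6 lower other pathway genes. A fold limit of 4 gave 78 higher and 76 lower genes and 0 members either way. The Bonferroni interval gave 138 higher and 213 lower genes and 0 members either way, so the calls of Pfkp and Gapdh rest on few counts. Without the 8 members known for processed pseudogenes (Gapdh, Ldha, Aldoa, Tpi1, Pgk1, Pgam1, Eno1 and Pkm) 0 members were called lower, since Gapdh is among them. DESeq2 size factors kept every call count within 1.5 times, and no gene named in the report and called changed direction under the 3 other scalings. Isoenzyme shares per length were not run, because exon lengths are not used here. No paired analysis was possible because the groups share 1 replicate number. Genes with few counts, such as Slc2a1, Hk1, Eno2 and Pdk3, have intervals too wide to show a difference of the size seen in the better counted genes.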

Other observations

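The shuttles that carry the electrons of glycolytic NADH into mitochondria were read among the other pathway genes. Got1 and Got2, the cytosolic and mitochondrial aspartate transaminases of the malate-aspartate shuttle, stood at 12.4 and 7.38 CPM and at 21.1 and 15.7 CPM in db/db and db/m islets, with ratios of 1.68 (1.34 to 2.12) and 1.34 (1.14 to 1.58). The carriers of that shuttle, Slc25a11, Slc25a12 and Slc25a13, had ratios of 0.972 (0.794 to 1.19), 0.953 (0.755 to 1.21) and 0.972 (0.741 to 1.28), whose intervals include 1. Gpd1, the cytosolic enzyme of the glycerol phosphate shuttle, stood at 16.5 CPM in db/db islets, against 10.1 CPM in db/m islets, for a ratio of 1.64 (1.35 to 2), while its mitochondrial partner Gpd2 had 13 and 17 counts. The intervals of Got1, Got2 and Gpd1 lay above 1 with total counts too.

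Genes that take citrate out of mitochondria for lipid synthesis lay above equal levels, with the citrate carrier Slc25a1 at 1.3 (1.07 to 1.58) and Acly, which splits citrate in the cytosol, at 90.8 CPM in db/db islets, against 76.4 CPM in db/m islets, for a ratio of 1.19 (1.1 to 1.28). The malic enzymes, which return malate to pyruvate, had ratios of 1.46 (0.714 to 3.12) for cytosolic Me1 and 1.2 (0.966 to 1.5) for mitochondrial Me2. Slc16a7, a carrier of pyruvate and lactate, stood at 53.7 CPM in db/db islets, against 58.3 CPM in db/m islets, for a ratio of 0.921 (0.842 to 1.01), beside few counts of Slc16a1.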
